A study of Mus musculus with 3 samples.

Results

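Genes that encode surface proteins used to recognise mouse hematopoietic stem cells (HSCs), 10 in number, were examined in open-chromatin data: Cd34, Ly6a, Procr, Slamf1, Cd48, Eng, Esam, Thy1, Itga2b and Cxcr4. They were chosen by name, as 10 of 21887 protein-coding genes, and every peak in the gene and 20 kb on either side (its window) was taken. These windows held 58 peaks in all, which formed 26 of the 24981 regions obtained by merging overlapping peaks of the 3 deposited lists. The cells were HSCs sorted from adult, poly(I:C)-treated mice of genotype Mx1-Cre-/-;mTORflox/flox, so all 3 groups carried floxed mTOR alleles without the Cre transgene, and mTOR was intact. In culture they were given the solvent DMSO, 200 nM AZD2014, which inhibits the mTOR kinase at its ATP site, or 1 µM rapamycin, which acts on mTOR through FKBP proteins. ATAC-seq, which reads where a transposase can enter DNA, gave 1 library per condition. With no replicates, no p-value was computed, and no difference below was measured against replicate error. The compounds were used at different concentrations, so their values are shown side by side and not compared at matched exposure.

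In mouse bone marrow, stem cells are recognised by combinations of surface proteins rather than by any single one. The stem cell gate joins Sca-1 (Ly6a) with the receptor Kit, and adds CD150 (Slamf1) present with CD48 absent, EPCR (Procr) present, or CD34 low. Endoglin (Eng), ESAM and low Thy1 refine such gates, CD41 (Itga2b) marks megakaryocytes and stem cells close to that lineage, and CXCR4 is the receptor for the niche chemokine CXCL12. Open chromatin at a gene start or at a distal element is a common feature of a transcribed gene, but it is not a measure of the protein.

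Itga2b and Cxcr4 had a peak at the gene start in all 3 lists. Cd34 had a gene-start peak under AZD2014 alone and Eng under DMSO alone. Procr, Slamf1 and Cd48 had no peak within 1 kb of the gene start in any list. The remaining genes Ly6a, Esam and Thy1 had no peak within 1 kb of either gene end in any list. Of the 7 members with a gene start in the RefSeq promoter table (GRCm38.p6, the assembly that mm10 names), 3 had a gene-start peak under DMSO, 3 under AZD2014 and 2 under rapamycin. Over all 17492 protein-coding genes with such a start, 48.5%, 51.8% and 49.5% had one.

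The sequences around 5 gene starts are shown as examples of each arrangement of peaks. Itga2b and Cxcr4 had a gene-start peak in all 3 lists, Cd34 and Eng each in 1 list, and Procr in none. Each sequence runs 5′ to 3′ along the gene's strand, from 250 bases before the start to 50 bases after it, and comes from RefSeq. Capitals mark matches to the letters AGATAA for GATA factors, TGTGGT for RUNX factors, AGGAAG for ETS factors, CAGCTG for an E-box, GGGCGG for a GC box and TGACGTCA for CREB, searched on both strands. No base of these sequences lay in more than 1 match, 0 in each.
Itga2b (chr11:102469834-102470133, minus strand): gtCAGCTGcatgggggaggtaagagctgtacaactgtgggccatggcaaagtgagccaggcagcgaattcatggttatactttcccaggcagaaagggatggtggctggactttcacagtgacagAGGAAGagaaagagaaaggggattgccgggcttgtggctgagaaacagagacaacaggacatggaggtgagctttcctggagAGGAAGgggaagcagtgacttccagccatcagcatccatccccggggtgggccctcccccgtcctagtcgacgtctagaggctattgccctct
Cxcr4 (chr1:128592250-128592549, minus strand): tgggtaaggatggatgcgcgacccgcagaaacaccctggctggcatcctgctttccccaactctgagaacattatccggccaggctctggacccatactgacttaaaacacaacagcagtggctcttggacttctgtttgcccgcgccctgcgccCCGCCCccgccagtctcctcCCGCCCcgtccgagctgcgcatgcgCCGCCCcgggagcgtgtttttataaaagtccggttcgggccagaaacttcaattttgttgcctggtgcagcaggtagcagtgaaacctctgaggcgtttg
Cd34 (chr1:194938571-194938870, plus strand): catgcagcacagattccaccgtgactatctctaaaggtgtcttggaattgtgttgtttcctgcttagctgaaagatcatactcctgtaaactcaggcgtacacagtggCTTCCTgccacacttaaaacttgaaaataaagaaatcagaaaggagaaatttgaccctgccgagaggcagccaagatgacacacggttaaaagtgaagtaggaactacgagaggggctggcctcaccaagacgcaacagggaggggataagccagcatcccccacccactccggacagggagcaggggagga
Eng (chr2:32646345-32646644, plus strand): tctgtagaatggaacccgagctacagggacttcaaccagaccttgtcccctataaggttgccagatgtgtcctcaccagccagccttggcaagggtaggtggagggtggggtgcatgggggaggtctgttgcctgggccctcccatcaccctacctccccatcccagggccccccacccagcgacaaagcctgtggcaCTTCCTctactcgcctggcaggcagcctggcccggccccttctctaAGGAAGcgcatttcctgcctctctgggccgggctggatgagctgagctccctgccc
Procr (chr2:155750967-155751266, plus strand): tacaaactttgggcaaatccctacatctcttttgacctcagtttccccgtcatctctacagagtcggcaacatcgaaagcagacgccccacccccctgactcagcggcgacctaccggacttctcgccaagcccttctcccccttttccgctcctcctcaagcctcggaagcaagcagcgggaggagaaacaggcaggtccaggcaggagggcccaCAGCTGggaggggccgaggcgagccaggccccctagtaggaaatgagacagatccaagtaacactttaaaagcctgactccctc

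All 300 bases shown for Itga2b and for Cxcr4 lay inside a peak in each list. At Cd34, 254 of the 300 bases lay in the AZD2014 peak, and at Eng 225 lay in the DMSO peak. The ETS letters were present at 5 of the 7 member starts, namely Cd34, Slamf1, Cd48, Eng and Itga2b, and in 34.4% of the 21263 promoters of protein-coding genes. The RUNX letters were found at Cd48 alone of the members (15.0% of all promoters) and the GC box at Cxcr4 alone, with 3 matches (46.2% of all promoters). The E-box letters were present at Procr, Slamf1 and Itga2b (15.6%), while the GATA letters (9.65%) and the CREB letters (2.23%) matched at 0 of the 7. These matches describe letters and not bound sites.

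Gene starts rich in CpG dinucleotides are often open in many cell types, so the CpG number was set beside the peaks. Cxcr4 had 20 CpGs in its 300 bases and Procr 13, the median of all promoters. The other 5 had fewer, with 7 at Cd34 and Cd48, 6 at Eng and Itga2b, and 4 at Slamf1. Among all promoters with 4 to 9 CpGs, 19.8% had a gene-start peak under DMSO, 23.8% under AZD2014 and 20.7% under rapamycin. Itga2b thus had a gene-start peak in all 3 lists in a CpG class where most promoters had no peak. In the class of Procr, with 10 to 19 CpGs, 63.3%, 67.8% and 64.6% had a peak, and Procr had none. In the class of Cxcr4 the shares were 81.0%, 84.7% and 82.1%.

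**Figure D1:**
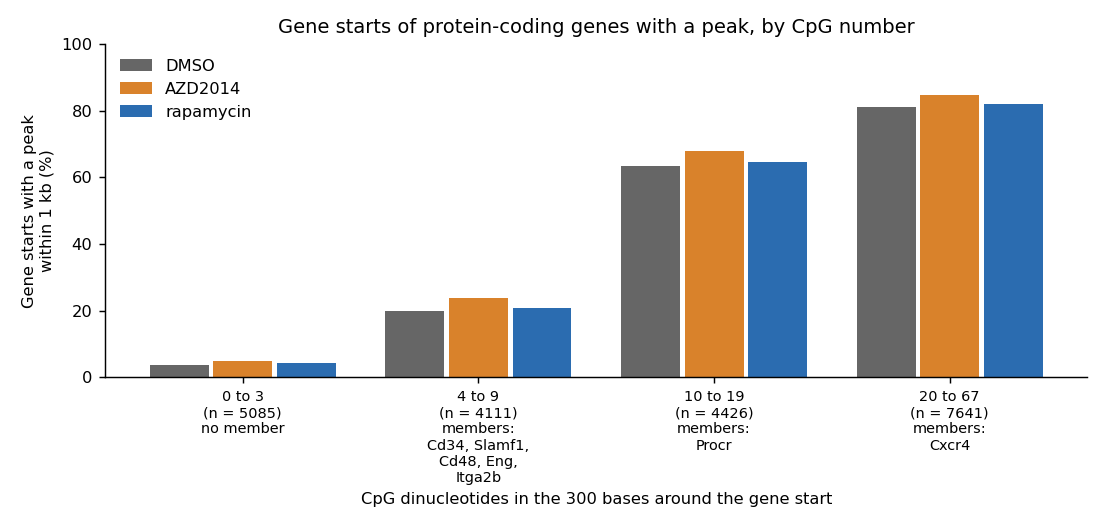
Share of gene starts of protein-coding genes with a peak within 1 kb (vertical axis, percent) by the number of CpG dinucleotides around the start (horizontal axis), with 1 bar per list and the members of each class named below it. The shares rise from under 5% with 0 to 3 CpGs to over 80% with 20 or more, and 5 of the 7 members sit in the class of 4 to 9.

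Across the windows, the DMSO list held 17 peaks of the 10 genes, the AZD2014 list 21 and the rapamycin list 20, a mean of 1.7, 2.1 and 2.0 per gene. All protein-coding genes averaged 1.32, 1.56 and 1.37. The medians were closer, at 1, 1.5 and 1 for the members and 1 in each list for all genes. Counts were not adjusted for window length. The whole lists also differ in length, at 17189 (DMSO), 21321 (AZD2014) and 18233 (rapamycin) peaks, and the read depth behind them is unknown. With each list shortened to its 17189 highest-scoring peaks the members held 17, 15 and 20, so AZD2014 then had fewer than DMSO. Means over all genes were not computed at that length. Where a list has no peak, the site was under the threshold that the authors applied, which is not a measurement of closed chromatin.

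Window counts were higher under AZD2014 than DMSO at 4 of the 10 genes, namely Cd34, Slamf1, Cd48 and Itga2b, and lower at 0. Over all protein-coding genes 23.6% had more window peaks under AZD2014 and 6.41% fewer. At equal list lengths the direction turned, with AZD2014 higher at 1 gene, Slamf1, and lower at 3, Cd34, Eng and Esam. Shares over all genes were not computed at that length, so the turn cannot be read as particular to the members. Under rapamycin the count was higher at 3 genes, Cd34, Itga2b and Cxcr4, and lower at 1, Eng, where 14.8% and 11.3% of all genes had more and fewer. Ly6a, Procr and Thy1 held exactly 1 peak in each list, as did 3683 protein-coding genes (16.8%). Esam held 4 in each list, but not the same 4. With 10 genes and 1 library per condition, these shares were not tested against those of all genes.

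**Figure D2:**
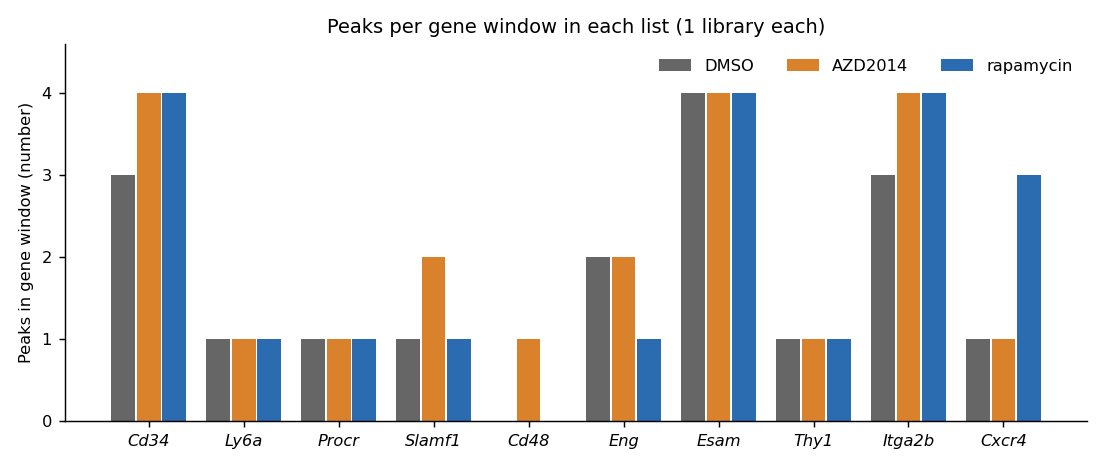
Number of peaks in each gene's window (vertical axis) for the 10 genes (horizontal axis), with 1 bar per list, each from 1 library. Cd48 has a single AZD2014 bar, Cxcr4 rises from 1 to 3 under rapamycin, and Ly6a, Procr and Thy1 stay at 1.

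Of the 26 member regions, 13 (50%) held a peak in all 3 lists, against 54.7% of all regions. Regions with a peak under AZD2014 and none under DMSO numbered 6 of 26 (23.1%), where 24.6% of all regions were of this kind. The reverse held for 2 (7.69%), beside 7.6% of all regions. For rapamycin, 6 (23.1%) had a peak there and none under DMSO, beside 16% of all regions, and 3 (11.5%) the reverse, beside 11.4%. Both drugs were set against the same DMSO library. The members' shares lay near those of all regions for AZD2014. At equal list lengths the AZD2014 numbers turned to 2 and 4, while those of rapamycin were again 6 and 3. The shortening took more peaks from the AZD2014 list than from the rapamycin list. Shares of all regions for these contrasts were not computed at that length, so the numbers cannot be read as particular to the members. Regions with a peak in all 3 lists then made up 52.2% of member regions and 59.5% of all regions.

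**Figure D3:**
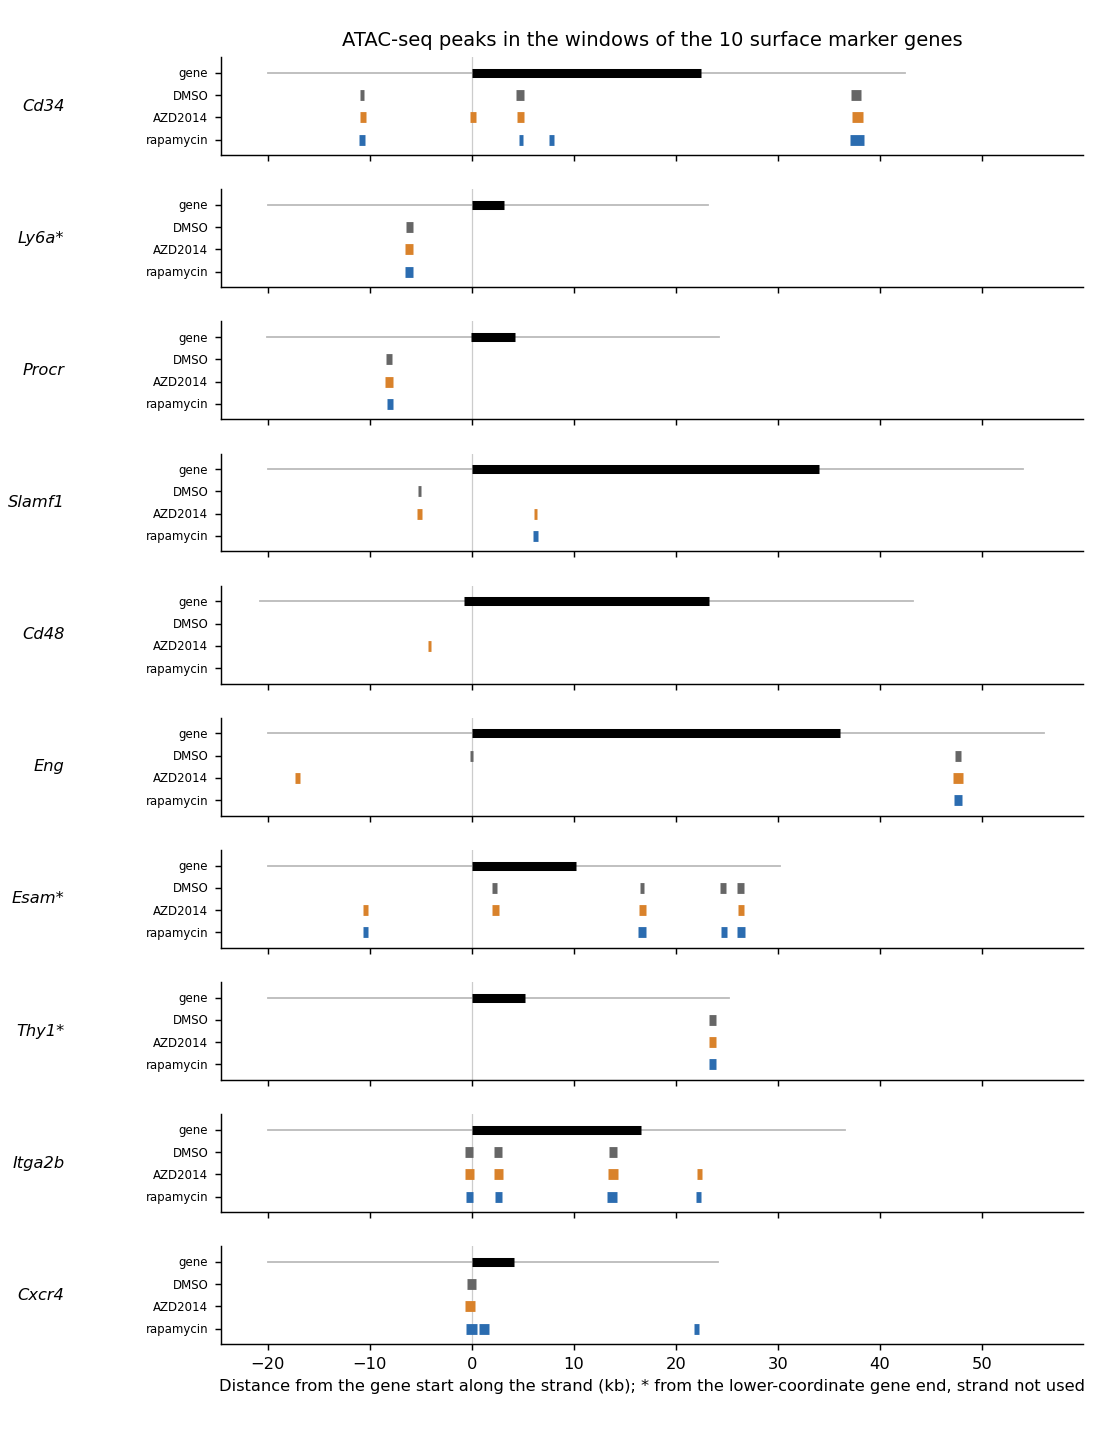
Position of every peak in the windows of the 10 genes, as distance from the gene start in kb (horizontal axis), with the gene as a black bar, its window as a grey line and 1 row per list. Distances at Ly6a, Esam and Thy1 are instead from the lower-coordinate gene end. Itga2b shows 3 regions in every list and 1 more under both drugs, and Cd48 a single AZD2014 peak.

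CD41 is the platelet integrin chain that Itga2b encodes (chromosome 11, 102453297 to 102469883), and its gene held the most peaks inside a gene body of the 10, with 3 in each list. The gene-start peak spanned 102469810 to 102470514 under DMSO with a score of 78.1, 102469677 to 102470589 under AZD2014 with 143, and 102469781 to 102470479 under rapamycin with 109. Each score was set by the authors' peak calling. It is read here only within a list, as the percent of that list's peaks with a lower score. By that measure the gene-start peak stood above 28.6% of the DMSO list, 52.0% of the AZD2014 list and 43.7% of the rapamycin list. A stronger region lay inside the gene, about 2.6 kb after the start, above 68.3%, 74.6% and 73.8% of the lists. Another, about 13.8 kb after the start, stood above 46.9%, 62.3% and 57.2%. All 3 regions stood lowest in the DMSO list, although lists of unequal length show no change by rank. Beyond the end of the gene, within Fam171a2, a region was listed under AZD2014 (score 66.2) and rapamycin (score 87.1) and not under DMSO. Of all rapamycin peaks within 5 percentile points of it, 30.4% lacked a DMSO partner, and of the corresponding AZD2014 peaks 66.4%. The AZD2014 peak had rank 17347 and was absent at equal list lengths, which left the region under rapamycin alone.

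Cxcr4 (chromosome 1, 128588199 to 128592299) had a broad gene-start peak in every list, 878 bp wide under DMSO, 966 bp under AZD2014 and 1036 bp under rapamycin. It stood above 60.9%, 61.0% and 54.8% of the lists, so it stood in the upper 50% of each. The rapamycin list alone held 2 further peaks. The first, 128590602 to 128591572, lay inside the gene with its near edge 727 bp from the start, was 971 bp wide and stood above 29.7% of the list. It was separated from the gene-start peak by 254 bp, and where gaps of up to 500 bp were bridged it joined the region common to all 3 lists, which left 5 regions under rapamycin and not DMSO. Among rapamycin peaks within 5 percentile points of it, 36.8% had no DMSO partner and 18.1% no AZD2014 partner. The second, 128570000 to 128570484, lay 17715 bp beyond the gene and stood above 15.9%, where 58.3% had no DMSO partner.

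Cd34 (chromosome 1, 194938821 to 194961292) encodes a sialomucin that is low on the most primitive mouse stem cells and higher on their progeny. Its gene start was covered in the AZD2014 list alone, by a peak of 594 bp at 194938617 to 194939210 with a score of 59.2, above 12.0% of that list. At that standing 73.6% of AZD2014 peaks had no DMSO partner and 70.8% no rapamycin partner. Its rank was 18756, so it was absent at equal list lengths. Under DMSO and rapamycin the nearest peaks were 4332 and 4584 bp into the gene. They belonged to a weak region found in all 3 lists about 4.7 kb after the start, above 13.5% of the DMSO, 17.6% of the AZD2014 and 14.8% of the rapamycin list. The AZD2014 peak of this region (rank 17568) was absent at equal list lengths. Rapamycin added a peak about 7.8 kb after the start, 194946425 to 194946862, above 31.6% of its list. Of rapamycin peaks at that standing, 33.3% had no DMSO partner and 14.8% no AZD2014 partner.

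Upstream of Cd34, a region 10365 bp from the gene was present in every list. It stood above 13.7% of the DMSO list, 26.9% of the AZD2014 list and 42.1% of the rapamycin list, with scores of 60.8, 77.8 and 105. The highest-scoring region of the window lay beyond the far end of Cd34, above 68.3%, 77.2% and 66.4% of the lists. It sits at the start of Gm16897, a non-coding RNA gene.

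Endoglin, a co-receptor for TGF-beta family ligands, is encoded by Eng (chromosome 2, 32646595 to 32682669). A narrow DMSO peak of 343 bp, 32646420 to 32646762, covered its start. The score of 52.8 was close to the lowest values in that list, about 50, and the peak stood above 3.55% of it. At that standing 43.0% of DMSO peaks lacked an AZD2014 partner and 56.6% a rapamycin partner. The nearest peak to the start was 16872 bp away under AZD2014 and 37523 bp away under rapamycin. The AZD2014 peak there lay at a start of Ak1, an adenylate kinase gene, above 17.6% of the list, and its rank of 17575 put it outside the lists of equal length. The member region with the highest standing under DMSO and under AZD2014 lay in the window of Eng, above 71.0% of the DMSO, 83.6% of the AZD2014 and 70.7% of the rapamycin list. It lies within Fpgs, the folate polyglutamate synthase gene, near one of its listed starts.

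The SLAM receptor genes Slamf1 and Cd48 are neighbours on chromosome 1, and stem cells are CD150-positive and CD48-negative. Slamf1 (171767131 to 171801184) had no gene-start peak. A region with its near edge 4836 bp before the start was listed under DMSO and AZD2014, above 23.2% and 27.8% of the lists, and not under rapamycin. Of DMSO peaks at that standing, 36.1% had no rapamycin partner. A region inside the gene, about 6.2 kb after the start, was listed under AZD2014 (171773259 to 171773567) and rapamycin (171773085 to 171773632), above 23.5% and 15.8%, and not under DMSO. At these standings 60.0% and 58.7% of peaks had no DMSO partner. Each list thus held at least 1 Slamf1 region, and no region was common to all 3.

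Cd48 (171681245 to 171705258) held no peak in its window under DMSO or rapamycin. AZD2014 listed 1 peak, 171677671 to 171677998, its near edge 3994 bp before the gene start, with a score of 53.4 above 5.16% of the list. Of AZD2014 peaks at that standing 79.6% had no DMSO partner and 76.2% no rapamycin partner. Its rank of 20221 put it outside the lists of equal length. The nearest peak to the Cd48 start lay 79850 bp away under DMSO and 91093 bp away under rapamycin, and 22.9% and 20.3% of genes had a start farther from any peak. These are the Slamf1 peaks described above, the one before its start under DMSO and the one inside it under rapamycin. A window without a peak was found for 33.6% of protein-coding genes under DMSO and 32.2% under rapamycin.

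Procr (chromosome 2, 155751125 to 155755478), the gene of the endothelial protein C receptor, had 1 region, in all 3 lists, with its near edge 7734 bp before the gene start. It spanned 155742826 to 155743403 under DMSO, 155742744 to 155743483 under AZD2014 and 155742913 to 155743472 under rapamycin. It stood above 51.7%, 54.7% and 44.9% of the lists, and no other gene of the table overlapped it. Ly6a (chromosome 15, 74994877 to 74998031), the gene of the interferon-inducible protein Sca-1, also had 1 common region, 5730 bp beyond its lower-coordinate end. This stood above 32.1%, 38.9% and 48.3%, and it overlapped the non-coding gene Gm28068 and the pseudogene Gm8000. Ly6 genes are a family of similar copies, and the treatment of reads that match several copies is not stated in the labels or files, so the values near Ly6a are uncertain.

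Thy1 (chromosome 9, 44043384 to 44048579), which encodes a small glycosylphosphatidylinositol-anchored protein of T cells, neurons and stem cells, had 1 region in all 3 lists, 18078 bp beyond its higher-coordinate end. It stood above 65.7%, 57.5% and 74.2% of the lists and overlapped Gm39325 and the lower-coordinate end of Usp2, a deubiquitinase gene. Esam (chromosome 9, 37528089 to 37538319), an adhesion protein of endothelium, platelets and stem cells, had 5 regions. Its only region inside the gene was listed under DMSO (37530112 to 37530524) and AZD2014 (37530060 to 37530753), above 0.303% and 11.6% of the lists, and not under rapamycin. The DMSO score of 50.2 was close to the lowest of the list, and the AZD2014 peak (rank 18846) was absent at equal list lengths.

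The other 4 Esam regions lay outside the gene. A region within Msantd2 was listed under AZD2014 and rapamycin, above 22.5% and 15.0%, and not under DMSO. At these standings 61.6% of AZD2014 and 58.8% of rapamycin peaks had no DMSO partner. A region in Nrgn, a neuronal calmodulin-binding protein gene, was listed in all 3 lists, above 15.0%, 43.0% and 27.8%. The region at the Nrgn start (37552390 to 37553109) was listed under DMSO, above 44.1%, and rapamycin, above 24.4%, and not under AZD2014. Of DMSO peaks at that standing, 2.27% had no AZD2014 partner, and of rapamycin peaks at the standing of its rapamycin peak 24.2%. The last region, near a start of the non-coding gene Gm46107, stood above 43.5%, 51.6% and 56.4%.

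**Figure D4:**
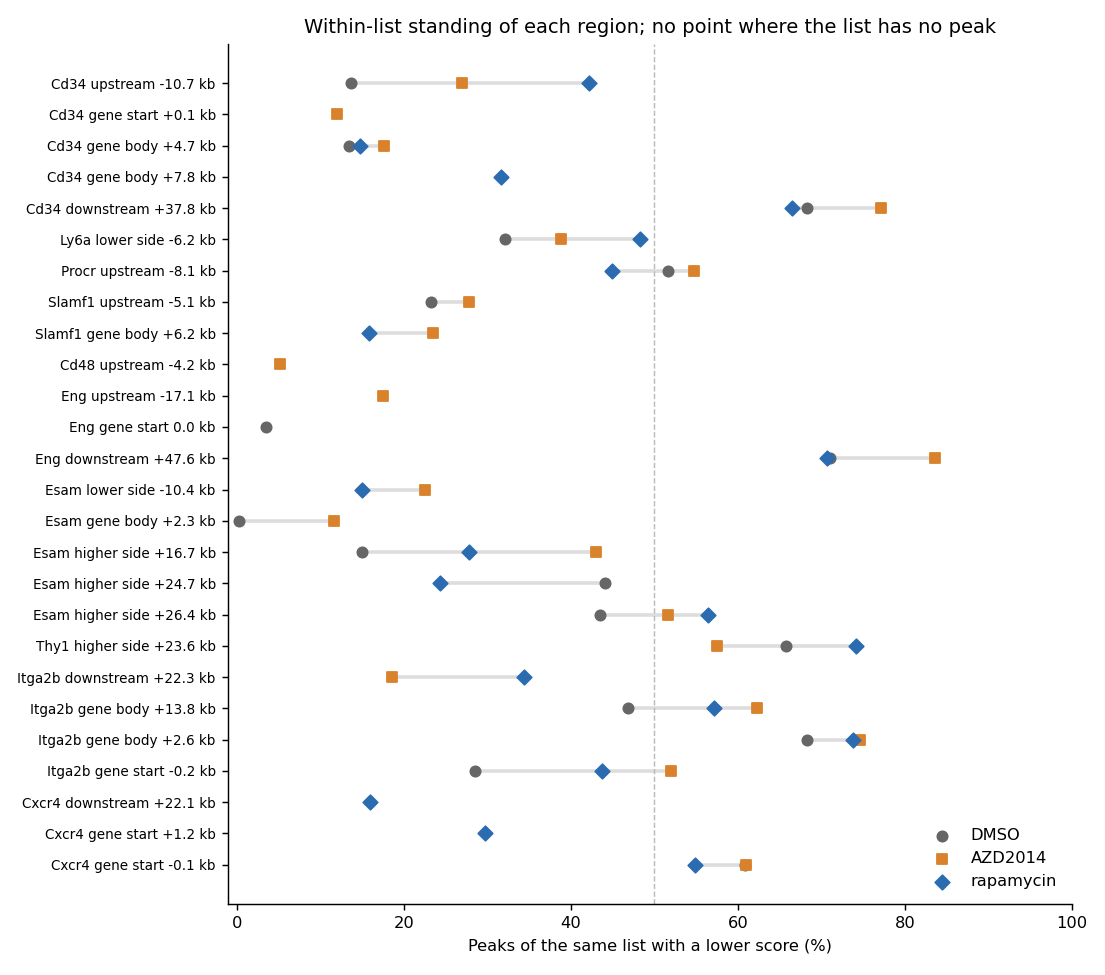
Percent of the same list's peaks with a lower score (horizontal axis) for each of the 26 regions (vertical axis, with the middle's distance from the gene start, or from the lower gene end for Ly6a, Esam and Thy1), with 1 marker per list and none where a list has no peak. Regions with 1 or 2 markers all lie left of the dashed line at 50%.

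The 13 common regions had a median standing above 46.9% of the DMSO, 54.7% of the AZD2014 and 54.8% of the rapamycin list, and 6, 9 and 7 of them stood in the upper 50%. The other member peaks numbered 4, 8 and 7, with medians of 13.4%, 18.1% and 24.4%, and 0 of them stood in the upper 50% of any list. That share was not computed over all regions, so it cannot be read as particular to the members. The ranges overlapped, since the weakest common regions stood above 13.5%, 17.6% and 14.8% and the strongest of the other peaks above 44.1%, 27.8% and 34.3%. No member peak was among the top 10% of its list. Widths of the common regions had medians of 705 bp under DMSO, 769 bp under AZD2014 and 771 bp under rapamycin. The AZD2014 peak was wider than the DMSO peak at 10 of the 13 and the rapamycin peak at 8. Over all 13367 regions with exactly 1 peak per list the shares were 84.9% and 76.6%.

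Not every region need belong to the marker gene. Of the 26 regions, 5 lay within 1 kb of a listed start of another gene, namely Gm16897, Ak1, Fpgs, Nrgn and Gm46107. This is a minimum, since 4395 protein-coding genes had no listed start. Without peaks at such starts the windows kept 13 DMSO peaks, 17 AZD2014 peaks and 16 rapamycin peaks. By place, 5 regions lay at a member's start, 6 inside a member gene, and 15 outside, and no region fell in the windows of more than 1 member.

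The label of the cells was set beside lists of other surface and lineage genes. Of 31 further HSC and progenitor surface genes, the windows held 54 DMSO, 70 AZD2014 and 54 rapamycin peaks. Means over all protein-coding genes were 1.32, 1.56 and 1.37 window peaks. Of the 22 with a listed start, 9, 13 and 10 had a gene-start peak, beside 48.5%, 51.8% and 49.5% of all protein-coding genes with one. The AZD2014 list is the longest, and these other lists were not counted at equal list lengths. Their differences between conditions thus cannot be read as particular to these genes. Kit, the stem cell factor receptor, had a gene-start peak in all 3 lists. Of the other genes whose proteins are present in the stem cell gate, Slamf1 and Procr had no such peak and Ly6a had none at either gene end. Of the genes whose proteins refine it, Eng had one under DMSO alone, and Esam and Thy1 had none at either gene end. Of the genes whose proteins are absent or low in the gate, Cd48 had no such peak and Cd34 had one under AZD2014 alone. Adgrg1, an adhesion receptor gene of stem cells, had a gene-start peak in all 3 lists and held 5, 8 and 6 window peaks. Flt3, a receptor of multipotent progenitors, held 4, 6 and 4, and Cd47, the inhibitory ligand of macrophages, 2, 4 and 4. Cd33, a sialic acid-binding receptor gene, held 1, 3 and 0, the Fc receptor gene Fcgr3 5, 6 and 3, and the platelet integrin gene Itgb3 5, 3 and 5.

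The 7 other SLAM family genes held 4, 4 and 3 window peaks, and the 10 other Ly6 genes 3, 7 and 3, with Ly6e at 1, 3 and 0 and Ly6i, whose window includes the region near Ly6a, at 1, 3 and 1. Markers of other cells were set beside all protein-coding genes with a listed start, of which 48.5%, 51.8% and 49.5% had a gene-start peak. Such peaks lay at 0 of 5 T cell genes and at 1 of 2 B cell genes, Cr2, in every list. In every list they lay at 3 of 4 erythroid genes (Klf1, Tfrc and Epor) and at 2 of 5 megakaryocyte genes (Gp1ba and Pf4). Myeloid genes had a gene-start peak at 0 of 4 under DMSO and AZD2014 and 1 of 4 under rapamycin. Endothelial genes had one at 1, 2 and 2 of 3, and non-blood genes at 0 of 4. Mast cell and basophil genes, Kit included, had one at 1, 1 and 2 of 5, and their windows held 1, 4 and 4 peaks. Among these, Ms4a2, a subunit gene of the high-affinity IgE receptor, held 0, 2 and 1, and the endothelial receptor gene Kdr 1, 3 and 3. In bulk chromatin, more cells of a type and more open chromatin per cell cannot be told apart, and the part of such cells in the members' values was not tested.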

How the data were processed

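ATAC-seq was run on 50000 cultured HSCs per library, 1 library per condition, per the labels' protocols. The authors deposited 1 list of peaks per library with a score per peak, a value of their own of at least 50. Peak names in the files carry the word MACS. The genome build was mm10 and CASAVA was used, per the submitters' processing notes. The aligner, calling settings, handling of duplicates and any correction for the transposase offset are not stated in the labels or files. They affect how many weak peaks are listed and how wide they are. Read depth is unknown, so no interval or floor is given.

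Groups came from the sample titles. Start positions were counted from 1. Genes, starts and sequences came from RefSeq tables on GRCm38.p6. All 10 members matched by symbol and 7 had a start. Ly6a, Esam and Thy1 had none in the table, so both gene ends were used. Peaks sharing 1 bp or more were merged into regions. A region or gene counted as differing where 1 list had a peak, or more window peaks, and the other did not. Ranks were taken within a list. The partner shares cover peaks of the same list within 5 percentile points. The alternatives were windows of 50 kb or the gene alone, starts of 500 or 2500 bp, a reciprocal overlap of 50%, gaps of 500 bp, lists of 17189 peaks and the upper 50% by score. All members are named. Other listed genes are named where a window count differed from DMSO by 2 or more, at most 6 per list, with Kit, the gate's defining receptor, named besides. The members and lists were chosen with earlier results of these data known. Peak merging and counting were tested on simulated data. Python 3.11.15, numpy 2.4.6, pandas 2.3.3 and matplotlib 3.10.9 were used.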

Additional observations from a re-analysis of the deposited data

How the results depend on the processing

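Shortening or lengthening what was counted moved the counts by construction. With the gene body alone the windows held 7 (DMSO), 8 (AZD2014) and 8 (rapamycin) peaks, and with 50 kb on either side 34, 39 and 35. Among the highest-scoring 50% of each list they held 6, 9 and 7. There, 1 member had a gene-start peak under DMSO and 1 under rapamycin, and 5 regions were common to all 3 lists. Regions under AZD2014 and not DMSO then numbered 3 and the reverse 0, and rapamycin regions without a DMSO peak 2 and the opposite 1. At equal list lengths, regions under AZD2014 and not DMSO fell to 2, those at Slamf1 and Esam, and the reverse rose to 4, since AZD2014 peaks ranked below 17189 left the list. The other 29 values, over all results and alternatives, stayed within 1.5 times the main count. The window count without peaks at another gene's start was added after the data were seen. Depth is unknown and limits every statement on a missing peak.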

Other observations

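Peaks just outside the windows bear on the windows' limit of 20 kb. The nearest excluded peak lay 20064 bp from Procr under AZD2014, and 21358 and 21454 bp from it under DMSO and rapamycin. At Itga2b it lay 20567, 22285 and 20465 bp away under DMSO, AZD2014 and rapamycin, and at Cxcr4 22495, 22201 and 22333 bp away. Near Ly6a the AZD2014 list had a peak 21434 bp from the gene, whereas the nearest excluded peak was 39140 bp away under DMSO and 60561 bp away under rapamycin.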
